A study of Homo sapiens with 15 samples.

Results

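The Notch pathway carries signals between touching cells. A ligand of the Jagged or Delta-like type on one cell binds a Notch receptor on its neighbour, proteases of the ADAM and gamma-secretase type cut the receptor, and the freed intracellular domain enters the nucleus, where it joins the DNA-binding protein RBPJ and a Mastermind coactivator (MAML) to switch on repressor genes of the HES and HEY families. In the ovary this pathway is known for its part in follicle assembly and in the growth of granulosa cells. The genes described here are 10 members chosen by symbol: the receptors NOTCH1, NOTCH2 and NOTCH3, the ligands JAG1 and JAG2, the nuclear partners RBPJ and MAML1, and the targets HES1, HEY1 and HEY2. All 10 were found among the 37787 genes of the count table.

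The RNA came from HGrC1, an immortalized, non-luteinized human granulosa cell line whose own FOXL2 alleles are normal, used at passage 14. Cells of 5 groups, 3 replicates each (A, B and C), were transfected by lipofection for 4 h and kept for 24 h without serum. The Vectors group received empty plasmids. The FOXL2WT group received SMAD3, a transcription factor of TGF-beta signaling, with wild-type FOXL2, a forkhead factor of granulosa cells, and the FOXL2C134W group received SMAD3 with the C134W mutant of FOXL2 that marks adult granulosa cell tumors. The FOXL2WT + FOXO1 and FOXL2C134W + FOXO1 groups received these same pairs plus FOXO1-3A, a form of the forkhead factor FOXO1 that stays active in the nucleus. All plasmids were expressed transiently in 1 cell line, and no source used here says whether the replicates were separate cultures, so the p-values measure the spread between these libraries, which may be technical.

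CPM is the usual depth-scaled count, here a read count divided by the TMM-scaled library total in megareads. Library totals ran from 14962245 to 25339094 estimated counts. The transfected genes followed the labels but not in equal amounts: FOXL2 lay at 554 to 566 CPM in FOXL2WT and 121 to 175 CPM in FOXL2C134W, and SMAD3 at 2595 to 2889 and 812 to 885 CPM. FOXO1 reached 104 to 132 CPM in FOXL2WT + FOXO1 and 39.1 to 47.2 CPM in FOXL2C134W + FOXO1. These are amounts of RNA. From an immunoblot of parallel cultures, the paper reports that the protein of both FOXL2 forms and of FOXO1 was balanced. With FOXO1 added, SMAD3 lay at 957 to 976 CPM beside the wild type and 379 to 411 CPM beside the mutant. FOXL2 then lay at 374 to 401 and 139 to 176 CPM. A difference between mutant and wild type therefore cannot be told apart from one between these RNA amounts, and this holds for every comparison of the 2 below. Vectors held FOXL2 at 8.28 to 9.54 CPM and SMAD3 at 240 to 263 CPM, and no group received SMAD3 alone. In every difference from Vectors below, the parts of SMAD3, of FOXL2 and, where added, of FOXO1 thus cannot be told apart. An effect of added FOXO1 likewise cannot be told apart from the lower SMAD3 that came with it. Beside the wild type, FOXL2 was lower too. Of 18 granulosa markers, 14 passed the filter on low counts, the transfected FOXL2 among them. The receptor of follicle stimulating hormone, FSHR, had 0 counts in all libraries. INHA and CYP19A1 had at most 4 counts and AMHR2 at most 7. Of 4 theca markers, CYP17A1, LHCGR and INSL3 stayed at or below 3 counts and PDGFRA had 14 to 35. Of 5 leukocyte markers, CD3E and MS4A1 had at most 1 count, PTPRC at most 5 and CSF1R at most 19, while CD68 lay at 88.7 to 117 CPM. Of 5 markers of the ovarian surface epithelium, 4 passed the filter, with KRT7 at 1154 to 1976 CPM. All listed endothelial markers passed it except CLDN5, which had at most 2 counts. These lists alone thus do not set granulosa cells apart from endothelial or surface epithelial cells. Of the theca and leukocyte markers, 1 of 4 and 2 of 5 passed the filter. Fewer cells expressing a gene and less RNA per cell cannot be told apart in these bulk libraries.

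Levels of different genes were compared in TPM, the share of transcripts after taking their length into account. NOTCH2 had the highest mean in all 5 groups, overlapping RBPJ in both groups with FOXO1, with 41.8 ± 0.311 TPM (SD, n = 3) in Vectors. It was followed there by RBPJ at 32 ± 4.51, HES1 at 20.4 ± 0.994, JAG1 at 13.7 ± 1.81 and MAML1 at 10.4 ± 0.818 TPM. The other members were far lower: NOTCH1 lay at 2.07 ± 0.124, JAG2 at 1.58 ± 0.12, NOTCH3 at 1.14 ± 0.248, HEY2 at 0.825 ± 0.237 and HEY1 at 0.261 ± 0.089 TPM. Within Vectors only the neighbours NOTCH3 and HEY2 overlapped in this order. In FOXL2C134W, MAML1 and JAG1 changed places with overlapping ranges, 10.6 to 12.5 and 10.4 to 11.7 TPM. HGrC1 thus held transcripts of a receptor, a ligand, the nuclear complex and one classical target at a sizeable level, with NOTCH2 and JAG1 ahead of their paralogs.

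A single coding transcript carried most reads of several members. NOTCH1-205 took 96.37% to 100% of the NOTCH1 reads, NOTCH2-201 took 97.05% to 98.49% of the NOTCH2 reads, and JAG1-201 at least 97.74% of the JAG1 reads. RBPJ-202 took 63% to 90.43% of the RBPJ reads, with up to 21.79% in RBPJ-205. JAG2 was the exception among the better covered members, since only 48.73% to 100% of its reads lay in protein-coding transcripts and the rest in transcripts annotated as retained introns. NOTCH2 shares near-identical sequence with NOTCH2NLA, NOTCH2NLB and NOTCH2NLC, which were listed at 16.3 to 21.6, 5.64 to 19 and 11.8 to 26.5 CPM. Together the 3 copies held 9.59% to 13% of the counts of this family, so NOTCH2 is uncertain by the reads salmon could divide among them. The pseudogenes NOTCH2P1, RBPJP2, RBPJP5, RBPJP6 and RBPJP7 were listed at 0.

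Each comparison was tested for all 13868 genes that passed the filter on low counts with edgeR's quasi-likelihood test, and a gene was called when its Benjamini-Hochberg adjusted p was under 0.05. All 10 members passed that filter. HEY1 did so mostly through FOXL2WT, which gave 3 of the 5 libraries that reached the limit of 0.458 CPM, against 0 in FOXL2C134W. In FOXL2C134W against FOXL2WT, the comparison of mutant with wild type, 5 of the 10 members were called, 3 higher and 2 lower, where 11.2% of all tested genes were called, 7.02% higher and 4.18% lower. HEY1 is 1 of those 2 lower members and, having passed through the group where it is high, is left out of any reading of this count, which leaves 4 of 9. Those 4, NOTCH1, NOTCH3, MAML1 and JAG1, all lie among the longest of 4 equal length groups of tested genes. In that group 18.2% were called higher and 1.85% lower, so the share over all genes is not matched to these members for length. The replicates of 5 members lay all higher and those of 3 all lower, where 30.4% of all tested genes did not overlap. HEY1 is among those 3 and is left out of any reading of this count too. In FOXL2C134W against Vectors, 2 members were called and both were higher, at a background of 15%, with 7.56% higher. In FOXL2WT against Vectors 1 member was called, and it was lower, at a background of 6.07%, with 3.59% lower. In FOXL2C134W + FOXO1 against FOXL2C134W 1 was called, also lower, at a background of 0.844%, with 0.829% lower. The median log2 fold change of the members in these 4 comparisons, HEY1 included, was 0.13, 0.02, 0.03 and -0.10, beside -0.01, 0.00, 0.00 and 0.00 over all genes tested. With transcript length offsets in DESeq2, FOXL2C134W against FOXL2WT called 1 member, NOTCH1, and 718 of 22737 genes. FOXL2C134W + FOXO1 against FOXL2C134W then called 0 members and 56 genes. Of the settings tried, that fit came nearest in these 4 comparisons to the numbers of genes the paper called, also with DESeq2.

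**Figure D1:**
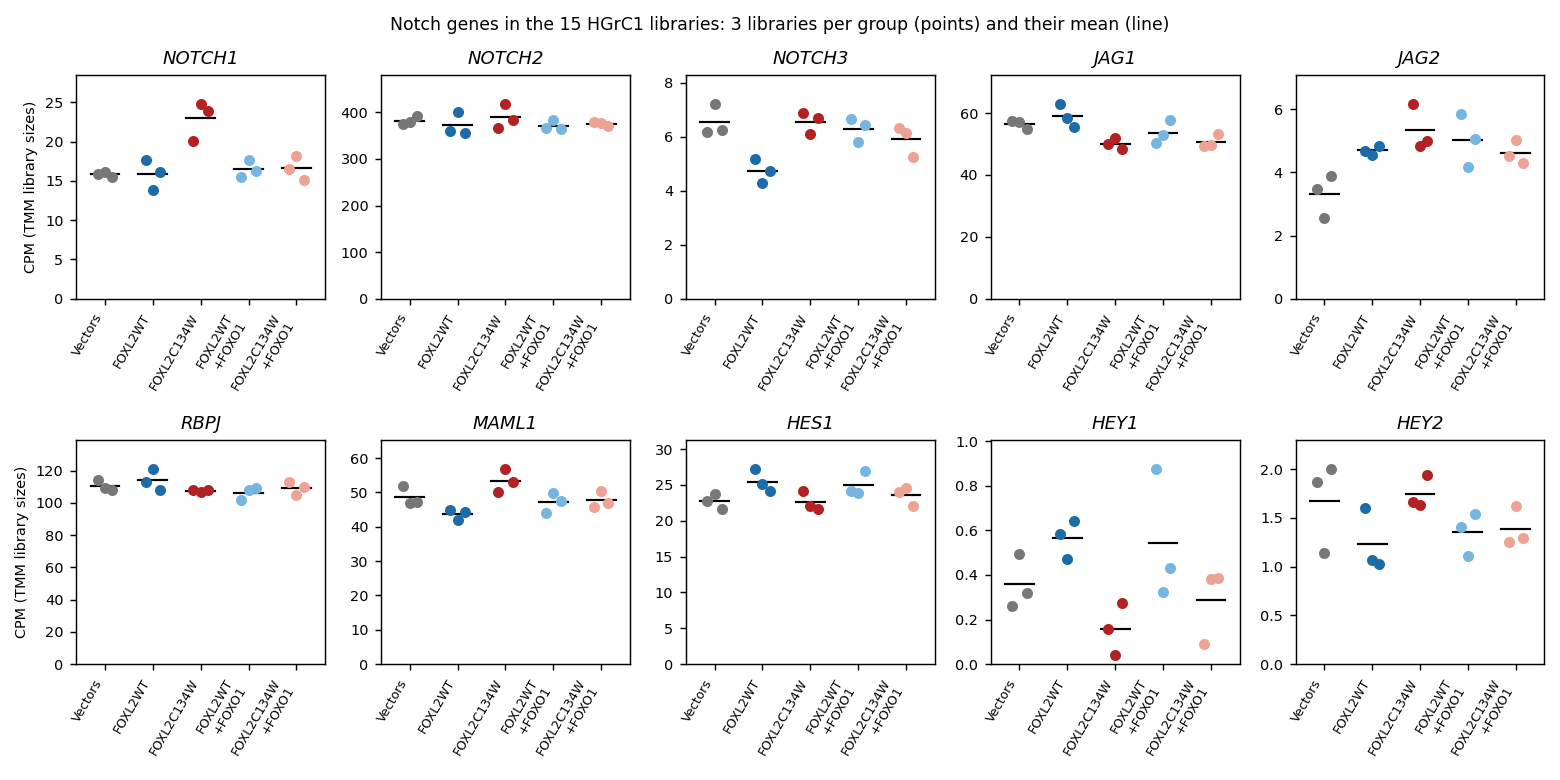
CPM of the 10 members in each of the 15 libraries (points; 3 per group) with the group mean (line), on linear axes that start at 0. The 3 FOXL2C134W libraries sit above all others for NOTCH1 (20.1 to 24.8 CPM) and the 3 FOXL2WT libraries below all others for NOTCH3 (4.3 to 5.16 CPM).

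NOTCH1 was the receptor that set the mutant apart. This gene lies on the minus strand at chr9:136494433-136546048 (GRCh38, GENCODE 44). Its level was 15.9, 16.1 and 15.5 CPM in Vectors replicates A, B and C, and 17.6, 13.8 and 16.1 CPM in FOXL2WT. In FOXL2C134W it was 20.1, 24.8 and 23.9 CPM. It was 15.5, 17.7 and 16.2 CPM in FOXL2WT + FOXO1 and 16.5, 18.2 and 15.1 CPM in FOXL2C134W + FOXO1. The 3 mutant libraries were thus the 3 highest of the 15, with no overlap, and the libraries of the mutant with FOXO1, at 15.1 to 18.2 CPM, overlapped those of the other groups.

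NOTCH1 rose 1.44-fold in FOXL2C134W over FOXL2WT, a log2 fold change of 0.53 ± 0.10 (SE, n = 3 per group; edgeR adjusted p = 0.001). Over Vectors it rose by the same 0.53 ± 0.09 (edgeR adjusted p = 0.00049). These comparisons share the FOXL2C134W libraries. Both calls held when any 1 library was left out and under all 12 other settings tried, in which the log2 fold change over FOXL2WT ranged from 0.28 to 0.54. The 0.28 came with offsets for gene length and GC content (adjusted p = 0.022).

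NOTCH1 was lower with FOXO1 added to the mutant: in FOXL2C134W + FOXO1 against FOXL2C134W its log2 fold change was -0.46 ± 0.09 (edgeR adjusted p = 0.023). In the same comparison SMAD3 differed by -1.11 ± 0.05 (edgeR adjusted p = 6.9e-13), and its part in the NOTCH1 result was not tested. Against Vectors the NOTCH1 level with both proteins differed by 0.07 ± 0.10 on the log2 scale (95% interval -0.13 to 0.27; adjusted p = 0.74). The effect of FOXO1 with the mutant minus that with the wild type, the interaction, was -0.52 ± 0.14 with an adjusted p of 0.063 in edgeR and 0.034 in DESeq2. The fall with FOXO1 was less firm than the rise in the mutant: its adjusted p lay between 0.11 and 0.15 without FOXL2C134W replicate B or C or FOXL2C134W + FOXO1 replicate A or C, and at 0.062 with the length and GC content offsets. Of 12 other settings, 7 called it. It was also lost with those 2 offsets plus the replicate block, the GC content offset alone, only the groups compared, and transcript length offsets in DESeq2.

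Other values moved with NOTCH1. The genes whose pattern over the 15 libraries was most like it were MT-ND1, CCDC88C and IQSEC1, each with a Pearson r of 0.92 in log2-CPM, given as a description because libraries of 1 group share their treatment. MT-ND1 encodes a subunit of mitochondrial complex I. Mitochondrial genes took 0.314% to 0.369% of the counts in FOXL2C134W and 0.264% to 0.309% in the other 12 libraries, and their part in the NOTCH1 result was not tested. Transcript length moved with the comparison as well. In FOXL2C134W against FOXL2WT the median log2 fold change was -0.08 in the shortest of 4 equal length groups of tested genes and 0.08 in the longest, of which 18.2% were called higher and 1.85% lower. Among the 113 tested genes at least as long as NOTCH1, with its 9402 bases, the median was 0.29, 36.3% were called higher and 29 lay above NOTCH1. With an offset that removes the trend on length, NOTCH1 was still called, at 0.30 ± 0.09 (edgeR adjusted p = 0.022).

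**Figure D2:**
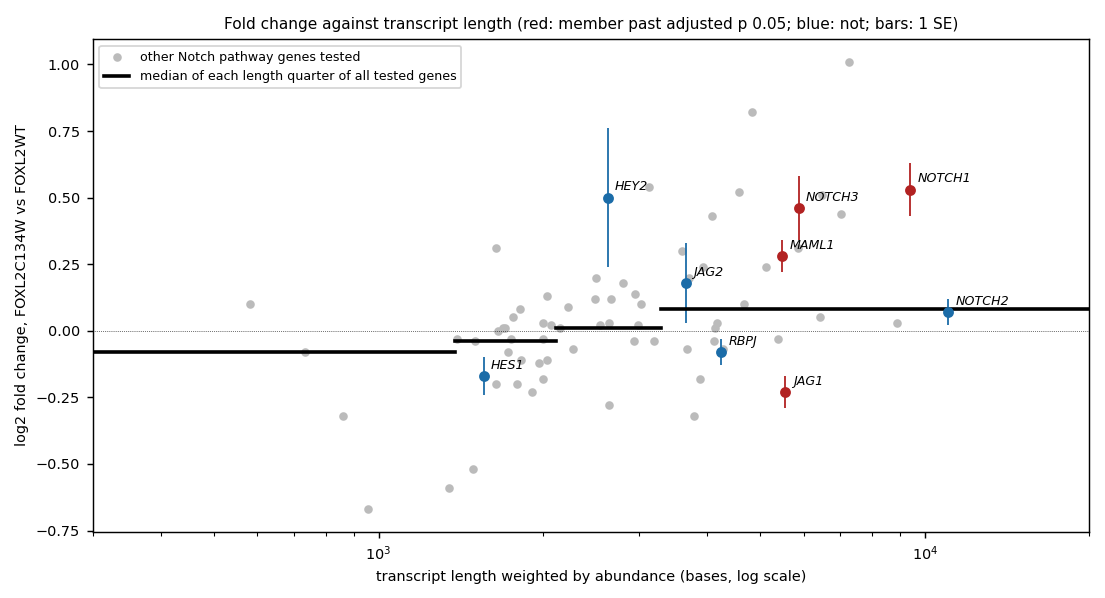
Log2 fold change in FOXL2C134W against FOXL2WT (vertical axis) against transcript length in bases, weighted by abundance (horizontal log axis), for 9 members (HEY1 left out for its low counts; red called, blue not; bars 1 SE) and the other Notch pathway genes (grey). Thick black lines mark the median of each of 4 equal length groups of all tested genes, from -0.08 in the shortest to 0.08 in the longest. NOTCH1, NOTCH3 and MAML1, and the uncalled JAG2 and HEY2, lie above that of their group.

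The window before the NOTCH1 start is shown because this receptor carries the main result. The RefSeq window (250 bases before and 50 after the start, GRCh38.p14) held none of the letters searched on both strands: TGGGAA and its longer form GTGGGAA for RBPJ, GTAAACA for forkhead factors, CAGAC for SMAD proteins, CACGTG for E-box factors and CACGCG for HES and HEY proteins. TGGGAA includes every match of GTGGGAA. The 250 bases before the start, chr9:136546049-136546298 on the minus strand, read 5′ to 3′ and are in lower case throughout for want of a match.
NOTCH1: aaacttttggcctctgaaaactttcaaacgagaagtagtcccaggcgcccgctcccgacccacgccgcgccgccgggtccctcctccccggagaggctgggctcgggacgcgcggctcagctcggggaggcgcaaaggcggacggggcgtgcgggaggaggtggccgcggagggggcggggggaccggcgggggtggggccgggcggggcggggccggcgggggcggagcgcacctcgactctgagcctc

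NOTCH3 showed another pattern, with the wild type apart from the rest. This receptor, known from the mural cells of blood vessels, lies at chr19:15159038-15200995 on the minus strand. Its level was 6.19, 7.22 and 6.24 CPM in Vectors A, B and C and 5.16, 4.3 and 4.74 CPM in FOXL2WT. FOXL2C134W libraries held 6.89, 6.1 and 6.68 CPM. With FOXO1, the level was 6.66, 5.8 and 6.45 CPM beside the wild type and 6.32, 6.13 and 5.25 CPM beside the mutant. The 3 FOXL2WT libraries were the lowest of all 15, and the mutant libraries overlapped Vectors.

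NOTCH3 fell by 0.46 ± 0.12 on the log2 scale in FOXL2WT against Vectors (edgeR adjusted p = 0.025) and was higher by 0.46 ± 0.12 in FOXL2C134W against FOXL2WT (edgeR adjusted p = 0.014). Both comparisons use the FOXL2WT libraries. With 64 to 174 counts per library, NOTCH3 was less firmly measured than NOTCH1. Its call between mutant and wild type was lost with the gene length offset (0.33, adjusted p = 0.11) and without FOXL2WT replicate B (0.41, adjusted p = 0.074) or FOXL2C134W replicate C (0.45, adjusted p = 0.051). With transcript length offsets in DESeq2 the difference was 0.12 (adjusted p = 0.92). That fit uses an average transcript length weighted by TPM. The long transcript NOTCH3-201 took 25.05% to 100% of the NOTCH3 TPM and 71.96% to 100% of the reads. The part of this share in the lost call was not tested. The fall against Vectors was lost without Vectors replicate A or B or FOXL2WT replicate B or C (adjusted p = 0.058, 0.1, 0.13 and 0.072) and was -0.13 (adjusted p = 0.95) with those offsets. FOXO1 beside the wild type gave 0.40 ± 0.12 (adjusted p = 0.31), and against FOXL2WT the mutant with FOXO1 gave 0.31 ± 0.12 (adjusted p = 0.18), so neither was called. Of 7 mural and smooth muscle markers, summed levels were 336 CPM in Vectors, 293 to 307 in FOXL2WT and 281 to 302 in FOXL2C134W, with MYH11 at no more than 9 counts. Their part in the NOTCH3 result was not tested.

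NOTCH2, the most abundant receptor, lies at chr1:119911553-120100779 on the minus strand. Its level ran from 374 to 392 CPM in Vectors, 355 to 401 in FOXL2WT, 366 to 418 in FOXL2C134W, 364 to 383 in FOXL2WT + FOXO1 and 371 to 378 in FOXL2C134W + FOXO1. All 5 groups overlapped. In FOXL2C134W against FOXL2WT it differed by 0.07 ± 0.05 (95% interval -0.03 to 0.17; edgeR adjusted p = 0.43). At 11025 bases NOTCH2 is the longest member. With the gene length offset its difference turned to -0.18 ± 0.04 and was called (edgeR adjusted p = 0.0066), and against Vectors it turned from 0.03 to -0.14 (adjusted p = 0.028). The direction for NOTCH2 thus rests on how the trend on length is treated.

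**Figure D3:**
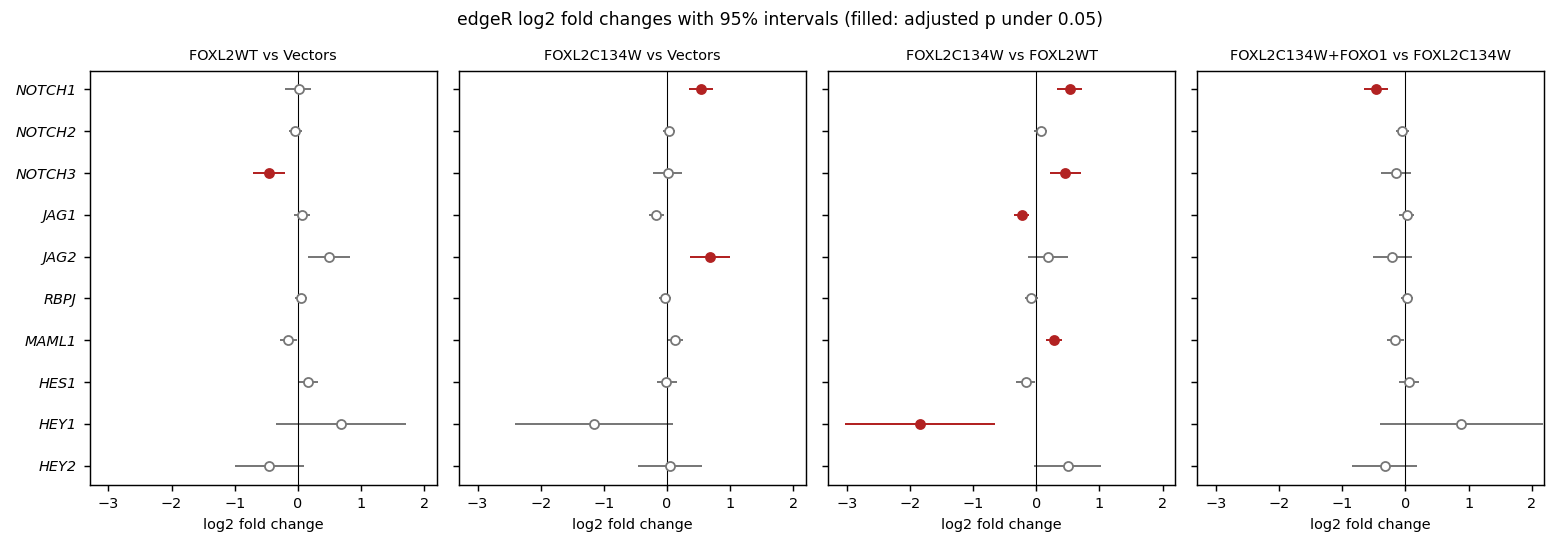
Log2 fold changes of the 10 members with 95% intervals in 4 comparisons, from edgeR (horizontal axis; filled red points have an adjusted p under 0.05). NOTCH1 stands at 0.53 in both comparisons of FOXL2C134W and at -0.46 when FOXO1 is added, and NOTCH3 changes sign between FOXL2WT against Vectors and FOXL2C134W against FOXL2WT.

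Of the ligands, JAG1 was called lower in FOXL2C134W against FOXL2WT and JAG2 higher in FOXL2C134W against Vectors, and no comparison called both. JAG1, at chr20:10637684-10673999 on the minus strand, was measured at 57.4, 57.2 and 54.8 CPM in Vectors and at 63, 58.3 and 55.6 CPM in FOXL2WT. It was 50.1, 51.9 and 48.3 CPM in FOXL2C134W, 50.3, 53 and 57.8 CPM in FOXL2WT + FOXO1 and 49.3, 49.7 and 53.4 CPM in FOXL2C134W + FOXO1. Every mutant library, with or without FOXO1, lay below every Vectors and FOXL2WT library. JAG1 fell by 0.23 ± 0.06 in FOXL2C134W against FOXL2WT (edgeR adjusted p = 0.013). Against Vectors it differed by -0.17 ± 0.06 (adjusted p = 0.052), and FOXL2C134W + FOXO1 differed from FOXL2WT by -0.21 ± 0.06 (adjusted p = 0.062), so both missed the threshold. Of 12 other settings, 6 called the former (down to -0.31) and 7 the latter (down to -0.29), the gene length and GC content offsets in edgeR among them, but none of the fits without 1 library called either. Leaving out FOXL2WT replicate A or FOXL2C134W replicate C ended the call against FOXL2WT (adjusted p = 0.09 and 0.065). JAG1 moved farther from 0 with the gene length offset, to -0.35 ± 0.05 (edgeR adjusted p = 9e-05), and was not called with transcript length offsets in DESeq2 (-0.18, adjusted p = 0.33).

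JAG2, at chr14:105140982-105168824 on the minus strand, was low throughout, with 52 to 156 counts per library. Its level was 3.49, 2.57 and 3.88 CPM in Vectors, 4.69, 4.56 and 4.83 CPM in FOXL2WT and 6.17, 4.85 and 4.98 CPM in FOXL2C134W. It was 5.85, 4.18 and 5.05 CPM in FOXL2WT + FOXO1 and 4.52, 5.03 and 4.3 CPM in FOXL2C134W + FOXO1. All 12 libraries that received SMAD3 and FOXL2 lay above the 3 Vectors libraries, and the transfected groups overlapped one another except that FOXL2C134W lay above FOXL2WT. JAG2 rose by 0.68 ± 0.15 in FOXL2C134W against Vectors (edgeR adjusted p = 0.0042). The differences from Vectors of FOXL2WT, 0.49 ± 0.16 (adjusted p = 0.072), and of FOXL2C134W + FOXO1, 0.47 ± 0.16 (adjusted p = 0.064), missed the threshold, and mutant and wild type differed by 0.18 ± 0.15 (95% interval -0.13 to 0.50; adjusted p = 0.49).

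Part of the JAG2 signal came from retained introns. Counting only reads assigned to its protein-coding transcripts, the level was 2.34, 1.72 and 3.19 CPM in Vectors and 6.02, 3.69 and 4.85 CPM in FOXL2C134W, again without overlap, and 3.77, 2.91 and 3.31 CPM in FOXL2WT. With FOXO1 it was 4.17, 2.03 and 5.05 CPM beside the wild type and 4.14, 3.8 and 4.3 CPM beside the mutant. On these reads both groups with the wild type overlapped Vectors, and both groups with the mutant lay above it. With transcript length offsets in DESeq2, which weigh these shorter transcripts, the difference from Vectors was -0.08 (adjusted p = 0.93) and JAG2 was not called.

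MAML1 was called higher in the mutant over the wild type, as NOTCH1 was, but not over Vectors. This coactivator, at chr5:179732822-179777283 on the plus strand, was measured at 51.8, 46.8 and 47.1 CPM in Vectors, 45, 42 and 44.2 CPM in FOXL2WT and 50, 56.8 and 52.9 CPM in FOXL2C134W. With FOXO1 it was 44.1, 49.9 and 47.4 CPM beside the wild type and 45.8, 50.4 and 46.8 CPM beside the mutant. Mutant and wild type did not overlap. MAML1 rose by 0.28 ± 0.06 in FOXL2C134W against FOXL2WT (edgeR adjusted p = 0.0054), a call that held without any 1 library. Over Vectors it differed by 0.13 ± 0.06 with overlapping replicates (adjusted p = 0.17). The former difference dropped to 0.16 ± 0.05 with the gene length offset (adjusted p = 0.051) and to 0.14 with transcript length offsets in DESeq2 (adjusted p = 0.65). Added FOXO1 gave -0.16 ± 0.06 against the mutant alone (adjusted p = 0.3). Over the 15 libraries, NOTCH1 and MAML1 had the highest r of any 2 members, 0.82. The genes most like MAML1 were DLG5, MLXIP and MYO9B, each with r = 0.94.

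RBPJ, the DNA-binding partner of all Notch receptors, lies at chr4:26163455-26435131 on the plus strand and was among the steadiest members. It ranged from 108 to 114 CPM in Vectors, 108 to 121 in FOXL2WT, 107 to 108 in FOXL2C134W, 102 to 109 in FOXL2WT + FOXO1 and 105 to 113 in FOXL2C134W + FOXO1. The difference between mutant and wild type was -0.08 ± 0.05 (95% interval -0.18 to 0.02; edgeR adjusted p = 0.3), and of the settings tried it was called with the gene length offset, at -0.16 ± 0.04 (adjusted p = 0.02), and with the gene length and GC content offsets plus the replicate block, at -0.13 (adjusted p = 0.034). Transcript length offsets in DESeq2 turned it to 0.22 (adjusted p = 0.48).

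**Figure D4:**
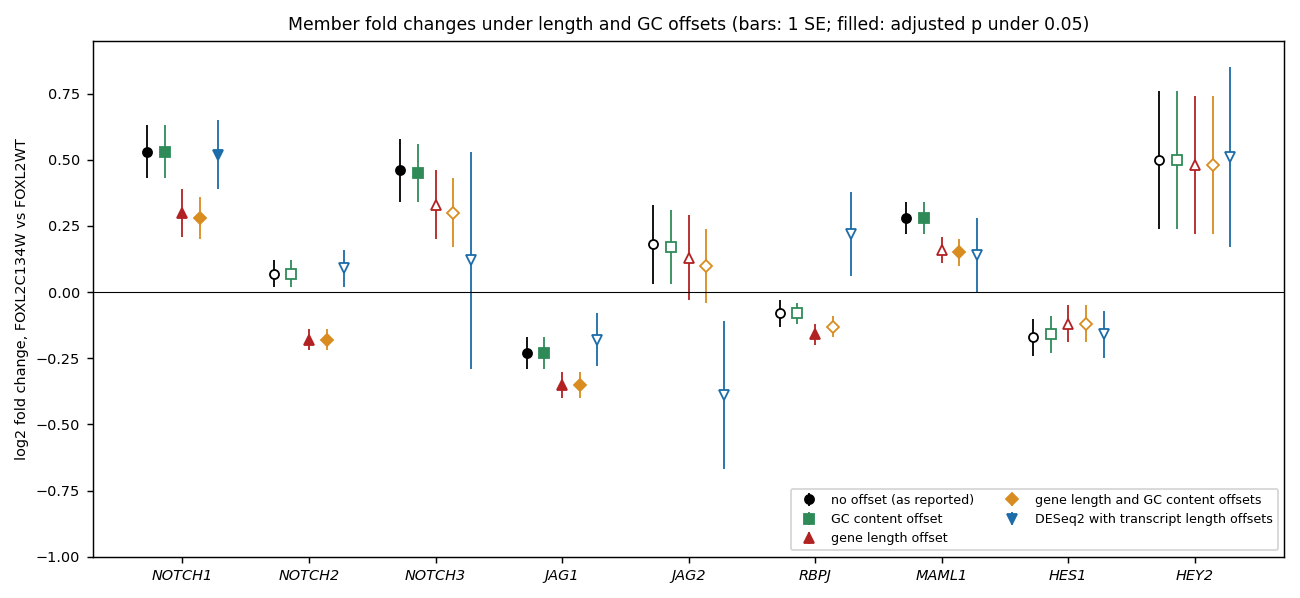
Log2 fold change of 9 members in FOXL2C134W against FOXL2WT (vertical axis, bars 1 SE) without offsets and under 4 treatments of length and GC content (HEY1 left out for its low counts; filled symbols have an adjusted p under 0.05). NOTCH1 stays above 0 and called in all 5, NOTCH2 turns to -0.18 with the gene length offset, and JAG1 goes to -0.35.

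HES1, the most abundant of the 3 target genes among the members, encodes a repressor that marks Notch activity in many tissues and lies at chr3:194136148-194138732 on the plus strand. Its level was 22.7 ± 0.989 CPM in Vectors, 25.5 ± 1.53 in FOXL2WT, 22.6 ± 1.35 in FOXL2C134W, 25 ± 1.72 in FOXL2WT + FOXO1 and 23.5 ± 1.33 in FOXL2C134W + FOXO1 (SD, n = 3 each). The 3 mutant libraries, at 21.6 to 24.1 CPM, all lay below the 3 FOXL2WT libraries, at 24.1 to 27.2 CPM, the nearest of them by less than the rounding. HES1 differed by -0.17 ± 0.07 between mutant and wild type (95% interval -0.32 to -0.02; edgeR adjusted p = 0.15) and by 0.16 ± 0.07 between FOXL2WT and Vectors (adjusted p = 0.21). It was called in none of the 9 comparisons. The receptor NOTCH1 and the coactivator MAML1 were thus called higher in the mutant while this target was not.

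The letters bound by RBPJ are shown for the members whose RefSeq windows held them. Of the 10 members, 9 had at least 1 window, and HES1, HEY2 and 1 of 5 RBPJ windows held GTGGGAA, which 6.25% of all 35116 windows held. TGGGAA alone occurred in 24% of windows and CACGCG in 11.4%. In HES1 a GTGGGAA begins 85 bases before the start and a second TGGGAA follows after 8 bases, both on the gene's strand, and CACGCG occurs on the other strand at 120 and 47 bases. RBPJ holds GTGGGAA once on each strand at 115 and 73 bases before the start of that window. In HEY2 it lies on the opposite strand 213 bases before the start, and a further match runs across the start. Capitals mark the RBPJ letters, as TTCCCAC on the opposite strand, in chr3:194135898-194136147 (HES1), chr4:26319616-26319695 (RBPJ) and chr6:125749397-125749446 (HEY2), all on the plus strand of GRCh38.p14 and written 5′ to 3′.
HES1: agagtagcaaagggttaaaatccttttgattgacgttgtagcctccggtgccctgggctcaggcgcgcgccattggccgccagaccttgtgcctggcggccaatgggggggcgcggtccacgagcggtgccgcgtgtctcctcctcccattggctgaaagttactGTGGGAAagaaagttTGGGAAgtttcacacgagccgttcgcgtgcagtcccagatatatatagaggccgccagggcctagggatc
RBPJ: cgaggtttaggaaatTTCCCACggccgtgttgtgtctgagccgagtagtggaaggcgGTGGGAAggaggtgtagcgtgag
HEY2: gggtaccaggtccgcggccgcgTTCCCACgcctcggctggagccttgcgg
These matches are descriptions of the reference, and no binding was measured. The forkhead letters GTAAACA, in 3.42% of all windows, and the E-box CACGTG, in 7.26%, were in no member window. CAGAC, in 45.3% of all windows, was in windows of HES1, RBPJ, HEY2 and JAG1.

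HEY1 and HEY2 were close to the limit of detection. HEY2, at chr6:125747664-125761269 on the plus strand, had 16 to 50 counts per library and a level of 1.03 to 1.6 CPM in FOXL2WT and 1.63 to 1.94 in FOXL2C134W. The groups did not overlap, yet the difference of 0.50 ± 0.26 was not called (95% interval -0.04 to 1.03; edgeR adjusted p = 0.24). HEY1 had 1 to 15 counts per library. In FOXL2WT its counts summed to 33 over 3 libraries and in FOXL2C134W to 11, a ratio of 0.268 after scaling for library size (95% exact binomial interval 0.122 to 0.544, for counting error only). HEY1 was called lower in edgeR (adjusted p = 0.039), but it passed the filter mostly through FOXL2WT, DESeq2 gave it no adjusted p, and the call held in only 1 of 6 fits that left out a library. At 1 count in FOXL2C134W replicate B, this depth gives little hold on the size of the difference.

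edgeR called no member in the other comparisons with FOXO1. In FOXL2WT + FOXO1 against FOXL2WT, edgeR called 0 of 10 members (2 at an unadjusted p under 0.05), at a background of 0.0721%. DESeq2 called 0 members there and 65 of 22740 genes. In FOXL2C134W + FOXO1 against Vectors both tools called 0 (2 at an unadjusted p under 0.05 in edgeR), where edgeR called 9.6% of all genes and DESeq2 1398 of 22740. Against FOXL2WT, edgeR called 0 (2 at an unadjusted p under 0.05), at a background of 1.85%. DESeq2 called JAG1 alone (adjusted p = 0.034), beside 607 of 22740 genes. Against FOXL2WT + FOXO1 both tools called 0, none at an unadjusted p under 0.05 in edgeR, where edgeR called 0.231% of genes and DESeq2 119 of 22740. In the interaction, edgeR called 0 (3 at an unadjusted p under 0.05), at a background of 1.48%. DESeq2 called NOTCH1 alone, beside 361 of 22740 genes.

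Around the members, 77 other genes of the pathway were listed by role, and 65 passed the filter. In FOXL2C134W against FOXL2WT, 10 of them rose and 5 fell, which is 23.1% beside 11.2% of all tested genes, with a median log2 fold change of 0.02 beside -0.01. Nuclear cofactors, with 7 coactivators and 12 corepressors among the 65 tested, gave 6 of the 10 that rose. Of all tested genes 7.02% were called higher and 4.18% lower. Of 7 coactivators 3 rose, CREBBP and EP300 among them, both histone acetyltransferases recruited by MAML proteins. CREBBP went from 28.1 to 32.4 CPM in FOXL2WT to 45.9 to 58.4 CPM in FOXL2C134W (log2 fold change 0.82 ± 0.10; edgeR adjusted p = 0.00014). EP300 went from 57.4 to 64.5 CPM to 75.4 to 94.1 CPM (0.51 ± 0.07; edgeR adjusted p = 0.00015). Of 12 corepressors 3 rose and none fell. SPEN, a scaffold that binds RBPJ in the absence of Notch, went from 27.7 to 29.1 CPM to 44.8 to 64.7 CPM (1.01 ± 0.16; edgeR adjusted p = 0.0021). NCOR1, a corepressor of nuclear receptors, went from 86.1 to 89.7 CPM to 106 to 139 CPM (0.54 ± 0.10; edgeR adjusted p = 0.0041). The other 4 coactivators and 9 corepressors were not called, and the median over the corepressors was 0.06. These cofactors serve many factors other than RBPJ. Of the 4 described here, SPEN at 7251, EP300 at 6488 and CREBBP at 4835 bases lie in the longest length group, which starts at 3293 bases. NCOR1, at 3127 bases, lies in the group below. The calls of all 4 in this comparison held with the gene length offset. With transcript length offsets in DESeq2, EP300 was not called (0.29, adjusted p = 0.46) and SPEN, CREBBP and NCOR1 were.

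Among 11 tested targets outside the members, 2 rose and 3 fell between wild type and mutant, where 7.02% of all tested genes were called higher and 4.18% lower. HES6, a relative of HES1 that can oppose it, went from 13.8 to 16.8 CPM in FOXL2WT to 8.25 to 11.6 CPM in FOXL2C134W, a change of -0.59 ± 0.11 (edgeR adjusted p = 0.0012). It had risen by 0.72 ± 0.11 in FOXL2WT over Vectors (edgeR adjusted p = 0.00034), where it lay at 8.55 to 9.44 CPM, so the mutant was near Vectors for this gene. HEYL was only just called, at 0.43 ± 0.14 (edgeR adjusted p = 0.048). It lost the call under 8 of 12 other settings, DESeq2 (0.09) and the gene length offset (0.12) among them, and in every fit without 1 library (0.091 to 0.17) except that without FOXL2C134W replicate C. Of the other roles, AAK1, a kinase of endocytosis, rose by 0.52 ± 0.09, MFAP2, a microfibril protein that can bind Notch, fell by 0.32 ± 0.10, and of the proteases FURIN rose by 0.20 ± 0.05 and the gamma-secretase subunit APH1A fell by 0.23 ± 0.06. AAK1 was called in every alternative run. The MFAP2 replicates overlapped, and its call was lost under 5 of 12 other settings, DESeq2 among them (0.055), and without replicate B or C of either group (0.13 to 0.25). FURIN lost the call without FOXL2WT replicate B or C or FOXL2C134W replicate A (0.056 to 0.076), APH1A lost it without FOXL2WT replicate B or FOXL2C134W replicate B or C (0.099 to 0.17), and both lost it with transcript length offsets in DESeq2 (0.84 and 0.09). None of 5 ubiquitin ligases of the ligands and none of 5 glycosylation genes was called. The ligand DLL4, a mark of endothelial cells, was not tested, with at most 12 counts, and DLK1 had 0 counts in all libraries.

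**Figure D5:**
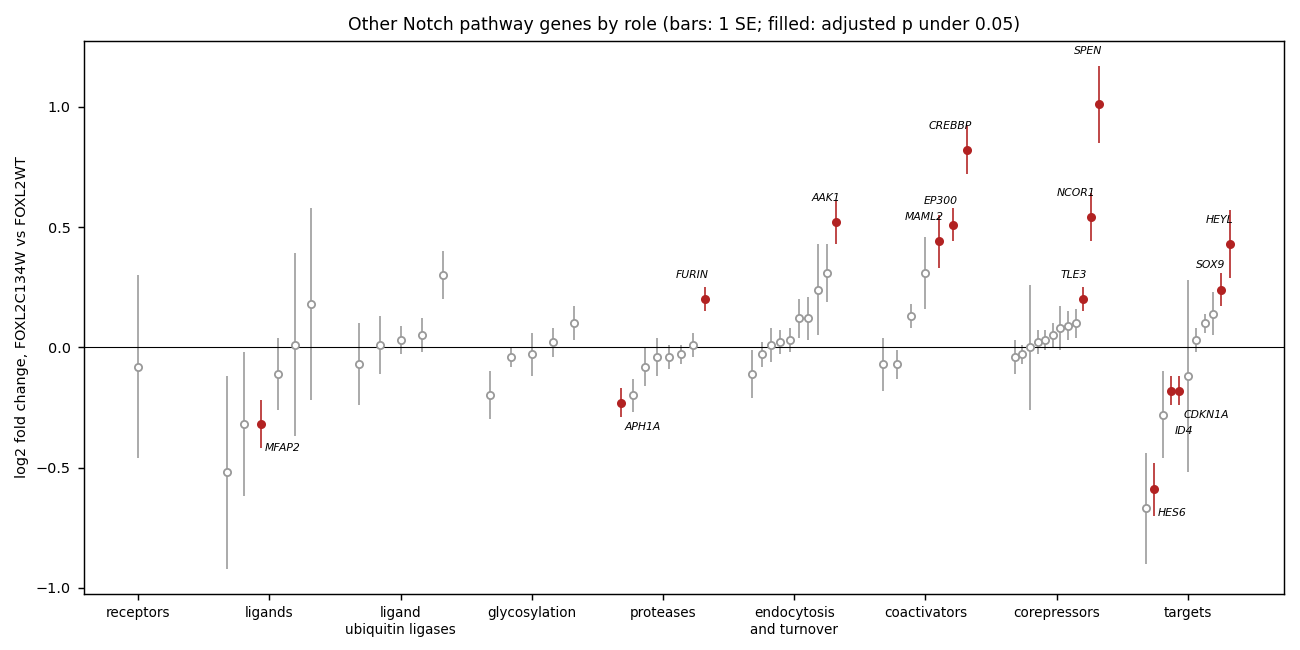
Log2 fold changes in FOXL2C134W against FOXL2WT (vertical axis, bars 1 SE) of the 65 tested pathway genes outside the members, by role. Filled red points, labelled, have an edgeR adjusted p under 0.05: 10 lie above 0, led by SPEN at 1.01 and CREBBP at 0.82, and 5 below, led by HES6 at -0.59.

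Against Vectors, the mutant showed 7 of the 65 pathway genes higher and 4 lower, 16.9% beside 15% of all genes. SPEN, CREBBP, NCOR1, EP300 and AAK1 were higher by 0.66, 0.49, 0.34, 0.33 and 0.34, and NEURL4 by 0.38. MYC, a target gene and growth regulator, rose by 0.34 ± 0.05 (edgeR adjusted p = 3.2e-05), and the cell cycle inhibitor CDKN1A fell by 0.27 ± 0.06 (edgeR adjusted p = 0.0027). ADAM17, a protease that cuts the receptors, and NCSTN, a gamma-secretase subunit, fell by 0.15 and 0.13, and MFAP2 by 0.33. The ADAM17 call was lost without any 1 library of these groups (adjusted p = 0.051 to 0.16), and the NCSTN call without Vectors replicate A or C or FOXL2C134W replicate B or C (0.07 to 0.16). Without Vectors replicate B or C or FOXL2C134W replicate B or C, neither SPEN (0.053 to 0.06) nor NCOR1 (0.11 to 0.13) was called. The NEURL4 call was lost without Vectors replicate B or C or FOXL2C134W replicate C (0.057 to 0.084), the MFAP2 call without Vectors replicate B or FOXL2C134W replicate B or C (0.085 to 0.17) and the AAK1 call without FOXL2C134W replicate B (0.062). In FOXL2WT against Vectors, 2 rose and 1 fell, 4.62% beside 6.07%: HES6 as given above, SOX9, which fell by 0.36 ± 0.07, and MYC, which rose by 0.31 and fell outside the rule for naming genes.

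When FOXO1 was added to the mutant, 1 of the 65 genes fell and none rose, 1.54% beside 0.844%. This gene was CREBBP, which dropped by 0.53 ± 0.10 to 32 to 39.9 CPM (edgeR adjusted p = 0.025). It lost the call with transcript length offsets in DESeq2 (adjusted p = 0.14), with the GC content offset (0.074), in the fit of these groups alone (0.082) and without FOXL2C134W replicate B or C or FOXL2C134W + FOXO1 replicate A or C (adjusted p = 0.12, 0.13, 0.15 and 0.071). When FOXO1 was added to the wild type, edgeR called 0 of the 65 (7 at an unadjusted p under 0.05) and DESeq2 called 0 of the 34 to which it gave an adjusted p. The difference between these effects of FOXO1 was called by edgeR for 2 genes of the list, CREBBP and EP300, which is 3.08% beside 1.48% of all genes. DESeq2 called it for 6 of the list, beside 361 of 22740 genes. In FOXL2C134W + FOXO1 against FOXL2WT, HES6, MFAP2 and APH1A fell by 0.57, 0.39 and 0.27, which is 4.62% of the list beside 1.85% of all genes. The HES6 call was lost without FOXL2WT replicate B or FOXL2C134W + FOXO1 replicate C (0.1 and 0.059), the MFAP2 call in every fit without 1 library (0.078 to 0.2) except that without FOXL2WT replicate A, and the APH1A call without FOXL2WT replicate B or C or FOXL2C134W + FOXO1 replicate A or C (0.057 to 0.18). Against Vectors, 3 were higher and 4 lower with both proteins, 10.8% beside 9.6%, among them MYC at 0.30, ITCH at 0.15, CTBP2 at 0.14, MFAP2 at -0.40, SOX9 at -0.31 and APH1A at -0.22. MYC and SOX9 were called in every alternative run. ITCH (0.067 to 0.22) and CTBP2 (0.084 to 0.15) lost the call in every fit without 1 library except that without FOXL2C134W + FOXO1 replicate B, and CTBP2 also under 4 of 12 other settings. APH1A lost it without Vectors replicate B or C or FOXL2C134W + FOXO1 replicate A or C (0.067 to 0.13), and MFAP2 without Vectors replicate B (0.087).

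For the members not yet compared with other genes, the highest r over the 15 libraries, again as a description, belonged to MIB1, CBX5 and POU2F1 for NOTCH2 (0.86, 0.85 and 0.84), INCENP, SETBP1 and LINC01569 for NOTCH3 (0.86, 0.83 and 0.83) and PRPSAP1, DUSP16 and LZTFL1 for JAG1 (0.86, 0.86 and 0.84). MIB1 is the ubiquitin ligase through which Notch ligands are taken up. TLX2, E4F1 and RTL10 were most like JAG2 (0.92, 0.92 and 0.91), and GNA13, GNAI3 and TMEM87B most like RBPJ (0.93, 0.92 and 0.88). TLX2, E4F1 and RTL10 had a GC content of 65.5%, 65.0% and 57.4% beside 63.8% for JAG2, and GNA13, GNAI3 and TMEM87B had 38.8%, 38.1% and 38.8% beside 38.8% for RBPJ. KCTD5, TRNP1 and RAC1 led for HES1 (0.86, 0.84 and 0.83), CHRAC1, CD83 and PDRG1 for HEY1 (0.84, 0.83 and 0.82) and PIAS3, LAMB2 and PTAFR for HEY2 (0.86, 0.81 and 0.80).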

How the data were processed

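RNA from 15 libraries (5 groups of 3) was read on TruSeq Stranded mRNA libraries as 75-bp single ends. The authors quantified reads with salmon 1.1.0 against hg38 and summed the estimated counts per gene; the deposited transcript tables also hold TPM values. Estimated counts were rounded here and tested with edgeR 4.0.16 in R 4.3.3 (quasi-likelihood, robust, TMM library sizes, filterByExpr), with all 15 libraries in 1 fit and Benjamini-Hochberg adjustment over 13868 genes at a threshold of 0.05. SE is the log2 fold change divided by the root of F, and intervals come from t. Columns not tied to a sample numbered 0. Groups came from the sample labels. The fit was tested on simulated data. Alternatives were DESeq2 1.42.0, other filters and size factors, offsets for length and GC content (GENCODE 44), a replicate block, each library left out and, chosen after seeing the data, no robust estimation and the JAG2 coding transcripts.

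The 10 members and all gene lists were chosen with earlier results of these data known. Named were all members, the transfected genes, near-identical copies, the 3 genes most like each member, and of the pathway list at most the 2 called genes with the largest change per role and comparison. The pathway counts leave out 2 listed genes that are not reported here. Intervals on counts cover counting error only. Promoter windows came from RefSeq on GRCh38.p14, and no window of HEY1 is shown.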

Additional observations from a re-analysis of the deposited data

Results flagged for a closer look

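For 2 nuclear cofactors of the pathway the effect of FOXO1 differed between mutant and wild type by the interaction term of the edgeR fit. For CREBBP the log2 difference was -0.87 ± 0.15 (edgeR adjusted p = 0.0095), with 45.9 to 58.4 CPM in FOXL2C134W, 32 to 39.9 CPM with FOXO1 added, 28.1 to 32.4 CPM in FOXL2WT and 35.2 to 42.6 CPM with FOXO1 added. For EP300 it was -0.49 ± 0.10 (edgeR adjusted p = 0.02), with 75.4 to 94.1, 69.2 to 72.1, 57.4 to 64.5 and 66.3 to 76.8 CPM in the same order. With transcript length offsets in DESeq2 neither was called (-0.96 and -0.25, adjusted p = 0.18 and 0.88). The EP300 call was also lost without FOXL2WT replicate B or C, FOXL2C134W replicate B or C, FOXL2WT + FOXO1 replicate B or FOXL2C134W + FOXO1 replicate A (adjusted p = 0.071, 0.058, 0.053, 0.061, 0.068 and 0.08). The cause was not tested.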

How the results depend on the processing

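The number of members called in FOXL2C134W against FOXL2WT was 5, and 1 with transcript length offsets in DESeq2, 4 to 6 under the other 11 settings (4 with the replicate block, 6 with both offsets and the block), and 3 to 4 with a library left out. The gene length offset also gave 5, but with NOTCH2 and RBPJ in place of NOTCH3 and MAML1, and both offsets gave 5 with NOTCH2 in place of NOTCH3. In FOXL2C134W against Vectors it was 2, and 4 with the gene length offset, alone, with GC content, or with GC content and the replicate block. In FOXL2WT against Vectors it was 1, 0 with transcript length offsets in DESeq2 or the gene length offset, 2 with a filter of 1 count in any library, only the groups compared, or both offsets with or without the block, and 0 to 1 with a library left out. In FOXL2C134W + FOXO1 against FOXL2C134W it was 1, 0 with transcript length offsets in DESeq2, only the groups compared, the GC content offset, or both offsets with or without the block, and 0 to 1 with a library left out. Against Vectors FOXL2C134W + FOXO1 had 0, 1 with the filter of 1 count, the gene length or the GC content offset, 2 with both offsets with or without the block, and 0 to 1 with a library left out. Against FOXL2WT it had 0, and 1 with DESeq2, the filter of 1 count, only the groups compared, and every offset in edgeR. In the interaction it was 0, 1 with DESeq2 or a filter of 1 count in any or 10 in every library, and 0 to 1 with a library left out. The directions that turned were those of NOTCH2 over FOXL2WT (-0.18 with the gene length offset, alone, with GC content and with the block) and over Vectors (-0.14 in the same fits, -0.02 to 0.08 with a library left out, negative without FOXL2C134W replicate B), NOTCH1 in FOXL2C134W + FOXO1 over Vectors (-0.01 to 0.14 with a library left out, negative without replicate B of the former) and, with transcript length offsets in DESeq2, JAG2 in FOXL2C134W over FOXL2WT (-0.39) and Vectors (-0.08) and in FOXL2C134W + FOXO1 over Vectors (-0.43), RBPJ (0.22) and EP300 over Vectors (-0.11). The cause was not tested.

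Same-letter replicates did not deviate together (r from -0.164 to 0.166 over 30 pairs, 2 over 0.1, and 5 of 15 libraries closest to their own letter), so no pairing by letter was seen. This cannot settle whether replicates of 1 letter were set up together. With the replicate block alone, HEY1 lost its call in FOXL2C134W against FOXL2WT (-1.83, adjusted p = 0.05). Over all genes, calls in FOXL2C134W against FOXL2WT ran from 718 with transcript length offsets in DESeq2 to 2064 with the GC content offset, beside 1553, in FOXL2WT against Vectors from 451 to 1857, beside 842, and in FOXL2C134W + FOXO1 against FOXL2C134W from 28 to 463, beside 117. HEY1 and HEY2, at 1 to 15 and 16 to 50 counts, were limited by depth.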
